A study of Mus musculus with 4 samples.

Results

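The genes described here were 46 splicing factors, picked out by patterns in their symbols among 25239 symbols in the count tables of mouse embryonic stem cells (mESC). The symbols gave 11 SR protein genes (Srsf and a number), 20 hnRNP genes (Hnrnp and a letter code), Tra2a and Tra2b, the 4 kinase genes Clk1 to Clk4, and 9 genes of the SF3A and SF3B complexes. All 4 libraries came from cells with both Ogt alleles floxed (Ogt fl/fl), Ogt being the gene of O-GlcNAc transferase, the enzyme that attaches N-acetylglucosamine to nuclear and cytoplasmic proteins. Polyadenylated RNA was sequenced from 2 samples exposed to 4-hydroxytamoxifen (4-OHT), which switches on tamoxifen-dependent recombinases, for 6 days (Ogt iKO), and from 2 kept for the same 6 days without the drug (control). Cells grew on mitomycin C-treated embryonic fibroblasts in medium with LIF, and living cells were sorted by surface staining for CD90.2 and CD326. The labels give CD90.2 as the marker of the mESC and CD326 as the one for removing feeder fibroblasts, whereas CD326 (EpCAM) is usually found on mESC and CD90.2 (Thy1) on fibroblasts, so which cells the gate kept is not certain from the labels. Selection of YFP+ cells was described only for the treated cultures, and no group received 4-OHT with Ogt intact, so effects of the drug, of that selection and of Ogt loss cannot be told apart. The series title names DNA demethylation and transposable elements as the subject of the study. The labels do not say whether the replicates were separate cultures, so p-values measure only the spread between these libraries.

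SR proteins and hnRNPs bind RNA during transcription and between them set which exons are joined. SR proteins mostly favour use of the exons they bind, many hnRNPs oppose it, and phosphorylation of the serine and arginine repeats of SR proteins by CLK and SRPK kinases controls where these proteins sit and when they act. SF3A and SF3B are parts of the U2 small nuclear ribonucleoprotein (U2 snRNP), the particle that recognises the branch point near the end of an intron. Many of these genes limit their own output by splicing in a poison exon, an exon with an early stop codon that sends the transcript to nonsense-mediated decay, or by holding back introns in the nucleus.

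The deposited counts summed to between 14668489 and 16504204 per library, and 14525 genes were tested by edgeR's quasi-likelihood method (p-values adjusted by Benjamini-Hochberg). Ogt itself was counted 437 and 389 times after treatment and 2963 and 3108 times without it, a log2 ratio of treated to control of -2.96 (SE 0.07, adjusted p = 2.49e-07). The 12 mESC markers were all present, with summed levels of 3181 and 3568 CPM (counts per 1000000, on TMM-scaled library sizes) in Ogt iKO against 5652 and 5603 in the controls, and 11 of them were lower. The 24 fibroblast markers reached 5473 CPM in Ogt iKO replicate 1 and 2511 CPM in replicate 2, with 3044 and 3341 CPM in the controls, with none of the 24 at 0 in any library. The summed level was thus highest in Ogt iKO replicate 1 and lowest in Ogt iKO replicate 2, while 6 of the 24 genes were called higher in Ogt iKO (Tagln, Acta2, Timp3, Pdgfrb, Twist1 and Sparc), 1 lower (Vim) and 17 not called. Without Ogt iKO replicate 1, all 46 splicing factor genes kept their calls, while the part of the mESC and fibroblast marker levels in the results was not tested. In bulk RNA of this kind, fewer cells of one type and less RNA per cell cannot be told apart.

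Most splicing factor genes were lower in the Ogt iKO libraries. At an adjusted p under 0.05, 36 of the 46 were lower, where 32.0% of all genes tested were lower, and 5 were higher, where 33.2% of all genes tested were higher. Called in either direction were 41 of the 46, against 65.3% of all genes tested. The 5 that rose were Srsf12, Clk1, Clk3, Clk4 and Hnrnpa3. The 5 that were not called were Srsf9, Hnrnph1, Hnrnpul1, Hnrnpul2 and Sf3b1. The median log2 ratio of the 46 was -0.43, where that of all genes tested was 0.02.

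The changes were shared by both libraries of each group and were mostly modest. For each of the 46 genes, both Ogt iKO values in TMM-scaled CPM lay on the same side of both control values, below them for 40 genes and above them for 6. The groups did not overlap for 83.2% of all genes tested (40.9% below and 42.3% above), so this separation was common in these libraries. Scaled by library totals instead, the groups overlapped for 5 of the 46, namely Srsf4, Srsf9, Srsf11, Hnrnph1 and Hnrnpul1. A fold of at least 1.5 was reached by 16 of the 46 genes, against 39.1% of all genes tested. These were 14 genes that fell, as did 2326 of the 14525 genes tested, and 2 that rose, as did 3347 of the 14525. Together the 46 genes took 1.47% and 1.51% of all counts in the Ogt iKO libraries and 1.82% and 1.78% in the controls.

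Most of these splicing factor genes are highly expressed, so they were also set beside genes of high level. Among the 4151 genes whose mean log2 CPM was 6 or more, 49.0% were lower and 24.7% were higher, with a median log2 ratio of -0.16. The 37 splicing factor genes above that level included 31 that were lower and 1, Clk1, that was higher, with a median of -0.44. Scaling also mattered. With library totals in place of TMM factors, the median of all genes tested moved to 0.19 and that of the 46 genes to -0.26, and 30 of the 46 were lower and 6 higher, where 3282 of all 14525 genes were lower and 6116 higher. Under that scaling Srsf9, Hnrnph1, Hnrnpul1 and Hnrnpul2, none of them called, turned from negative to slightly positive values.

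**Figure D1:**
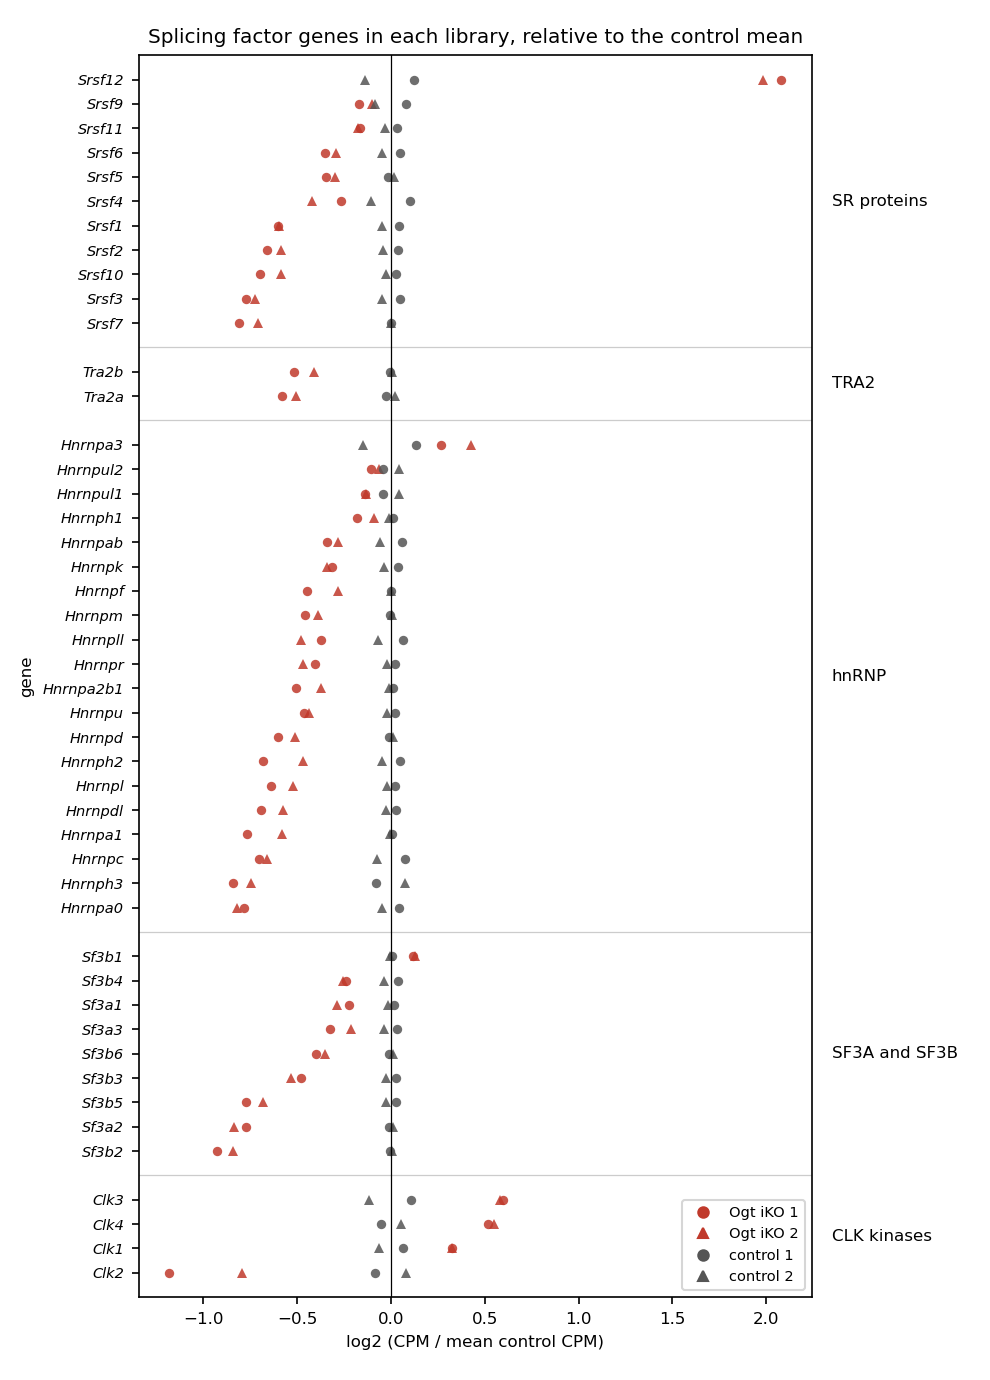
Level of each of the 46 splicing factor genes in each library, as the log2 ratio of its CPM to the mean CPM of the 2 control libraries (horizontal axis), with genes grouped by class (vertical axis). Red marks are Ogt iKO libraries and grey marks control libraries, and for 40 genes both red marks lie to the left of both grey ones.

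**Figure D2:**
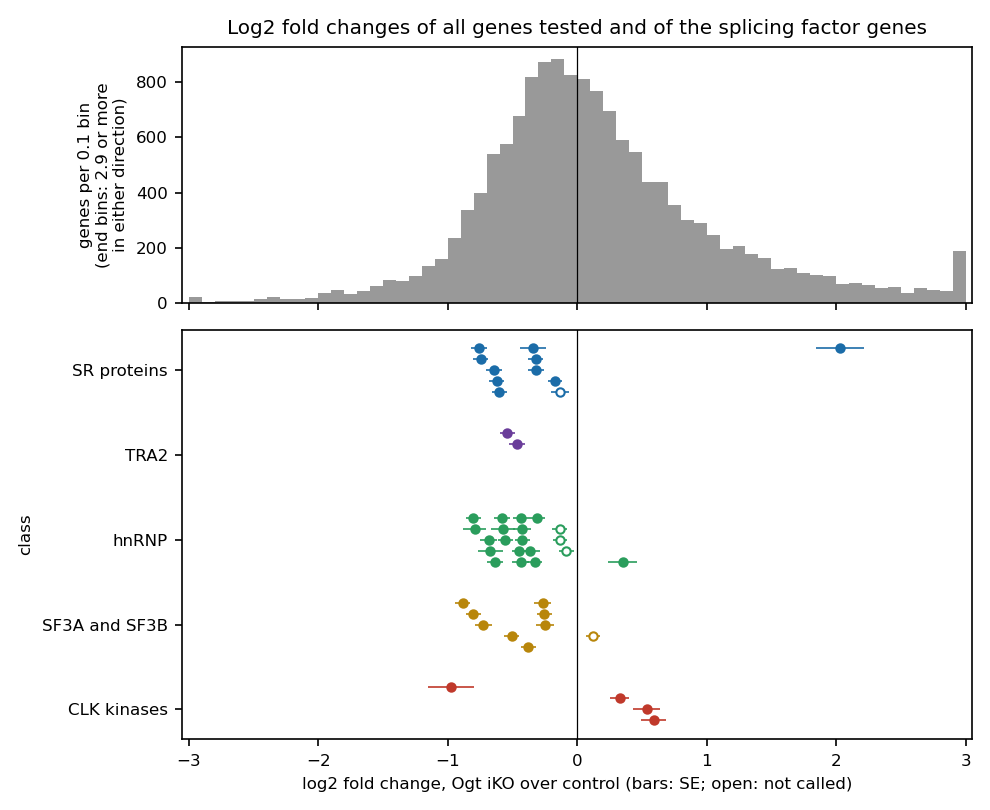
Upper panel, number of genes per bin of log2 ratio (Ogt iKO over control) for the 14525 genes tested, with more extreme values placed in the end bins. Lower panel, log2 ratio of each splicing factor gene by class, with its SE as a bar and open circles for genes that were not called. Most points lie below 0 in every class but the CLK kinases.

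Gene counts do not tell the productive and the unproductive transcripts of a gene apart, and the annotation shows how many of these genes have the second kind. In GENCODE M21 (GRCm38), 26 of the 46 genes (56.5%) have a transcript marked for nonsense-mediated decay, against 26.5% of the 14352 tested genes with a gene model. A transcript with a retained intron is annotated for 35 of the 46 (76.1%), against 55.2%. In 10 of the 46 (21.7%), against 6.93%, a decay transcript has its early stop in an exon that no coding transcript contains, the arrangement of a poison exon. Among those 10 genes, 8 fell and Srsf9 and Sf3b1 were not called, with a median log2 ratio of -0.45, and the median of the other 36 genes was -0.43. Of the 995 tested genes with such an exon, 351 (35.3%) were lower, with a median of -0.04. The other 36 of the 46 genes include some with annotated decay transcripts, such as Srsf1, Srsf2 and Hnrnpd. The split thus does not set genes with decay transcripts against genes without them. The counts do not separate these isoforms, so whether inclusion of the exons differed between groups was not tested.

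The poison exons are shown for the 5 genes with the largest falls among those 8. Whether reads from them were counted depends on the annotation behind the deposited counts, which is not given in the sources used here. Each line gives the part of the exon from its first base to the early stop codon, which is in capitals, read on the gene's own strand from GENCODE M21 transcripts. The whole exons lie at chr17:29039454-29039909 (Srsf3, plus strand, 456 bases), chr17:80204622-80205081 (Srsf7, minus strand, 460 bases), chr6:49252803-49253108 (Tra2a, minus strand, 306 bases), chr16:22258986-22259261 (Tra2b, minus strand, 276 bases) and chr7:28817335-28817404 (Hnrnpl, plus strand, 70 bases). The stop comes after 34 bases in Srsf3, 28 in Srsf7, 144 in Tra2a, 81 in Tra2b and 59 in Hnrnpl, the stop codon included.
Srsf3 poison exon: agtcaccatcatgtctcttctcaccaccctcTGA
Srsf7 poison exon: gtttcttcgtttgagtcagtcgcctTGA
Tra2a poison exon: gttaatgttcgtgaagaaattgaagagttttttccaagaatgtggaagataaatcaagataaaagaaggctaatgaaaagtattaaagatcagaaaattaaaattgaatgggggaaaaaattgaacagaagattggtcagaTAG
Tra2b poison exon: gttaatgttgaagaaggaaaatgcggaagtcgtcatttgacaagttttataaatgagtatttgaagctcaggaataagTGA
Hnrnpl poison exon: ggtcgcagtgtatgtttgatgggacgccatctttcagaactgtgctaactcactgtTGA

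Tra2a and Tra2b carry their poison exon as the second exon of the decay transcript, and both of these exons open with the letters gttaatgtt. In each of the 5 transcripts the stop lies at least 548 bases before the last exon junction. The exons of Srsf3 and Srsf7 are much longer than that of Hnrnpl, and their stops fall within the opening stretch.

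Of the 11 SR protein genes, 9 fell and 1 rose, beside 32.0% and 33.2% of all genes tested, and 1 was not called. Their median log2 ratio was -0.34. Srsf7, which encodes an SR protein that also helps export spliced mRNA, was among those that fell most. It had 4317 and 4213 counts in the iKO pair and 6858 and 6805 in the control pair, or 262 ± 13.5 against 443 ± 0.383 CPM (SD, n = 2 each). The Ogt iKO level of Srsf7 was 59.1% of the control level (log2 ratio -0.76, SE 0.06, adjusted p = 1.46e-05), a difference many times the spread within either group. The gene lies at chr17:80200080-80207307 on the minus strand (GRCm38).

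Srsf3, the gene of the smallest SR protein, followed closely (chr17:29032628-29043373, plus strand). Its counts were 3950 and 3699 after treatment and 6301 and 5844 without it, with no overlap between groups, and its level fell to 59.6% of control (log2 ratio -0.75, SE 0.06, adjusted p = 1.59e-05). Srsf10 (chr4:135855747-135869908, plus strand), whose product acts as a splicing repressor when it loses its phosphates, had 1714 and 1681 counts against 2567 and 2451. That was 64.0% of control (log2 ratio -0.64, SE 0.06, adjusted p = 4.76e-05).

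The SR protein genes with the highest length-scaled levels fell as well. Srsf2 (chr11:116849901-116853094, minus strand), the gene of the speckle protein SC35, had 504 ± 19.5 CPM per kilobase of mRNA in the controls and 328 ± 12.1 in Ogt iKO (SD, n = 2 each). Its counts of 8800 and 8412 against 12936 and 12137 gave a log2 ratio of -0.62 (SE 0.06, adjusted p = 4.37e-05). Srsf1 (chr11:88047373-88053755, plus strand), the founding member of the family, had 13900 and 12662 counts against 19721 and 18362. Its level fell from 419 ± 18.5 to 276 ± 0.782 CPM per kilobase, a log2 ratio of -0.60 (SE 0.06, adjusted p = 4.60e-05). In Srsf2, 25.3% of the exon length lies under exons of Mettl23 and Mfsd11 on the other strand, so its counts are uncertain if strand was not used.

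Srsf4, Srsf5 and Srsf6, which encode the SR proteins with a pair of RNA-binding domains closest to each other in sequence, fell by similar amounts. Their log2 ratios were -0.34 for Srsf4, -0.32 for Srsf5 and -0.32 for Srsf6, with adjusted p values of 0.0166, 0.00113 and 0.00164. Srsf11 fell least among those called, by 0.17 on the log2 scale (adjusted p = 0.0245), and had 4008 and 3597 counts against 4148 and 3937. Srsf9 had 2271 and 2162 counts against 2446 and 2164, a log2 ratio of -0.14 that was not called (adjusted p = 0.117), though it was called without Ogt iKO replicate 2 (adjusted p = 0.0435) or without control replicate 2 (adjusted p = 0.0395). Leaving out control replicate 1 ended the calls of Srsf4 (adjusted p = 0.125) and Srsf11 (adjusted p = 0.128), and so did scaling by library totals (adjusted p = 0.168 and 0.991). Srsf11 also lost its call with upper quartile scaling (log2 ratio -0.13, adjusted p = 0.0707). The 50-base windows of the longest coding Srsf4 transcript were searched on both strands. Of these, 34.6% occurred in no other gene and the rest in 1 other gene. The antisense gene Gm12992 covers 43.0% of the Srsf4 exon length, so both values may describe the same overlap.

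Srsf12 was the one SR protein gene that rose. Its product, also known as SRrp35, is a close relative of the Srsf10 protein. It had 197 and 167 counts after treatment against 46 and 38 without it, or 11.1 ± 0.535 against 2.73 ± 0.350 CPM (SD, n = 2 each). The rise was 4.08-fold (log2 ratio 2.03, SE 0.19, adjusted p = 3.38e-05), and 95.5% of all genes tested had a lower fold change. Even so, Srsf12 (chr4:33208991-33233340, plus strand) was only the second lowest of the 46 genes per length of mRNA in Ogt iKO, at 3.79 CPM per kilobase, above Clk2 at 3.21, having been the lowest in the controls at 0.927, below Clk2 at 6.30. Every window of its transcript occurred in no other gene, and no exon of another gene overlapped it. Without Srsf12, the other 10 SR protein genes had a median log2 ratio of -0.47.

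Both TRA2 genes fell. Their products resemble SR proteins and bind exonic enhancers rich in GAA. Tra2a (chr6:49243924-49264033, minus strand) had 2744 and 2621 counts in the iKO pair and 3648 and 3739 in the control pair, a log2 ratio of -0.54 (SE 0.06, adjusted p = 7.04e-05). Tra2b (chr16:22244549-22266005, minus strand) had 2137 and 2087 counts against 2754 and 2758, a log2 ratio of -0.46 (SE 0.06, adjusted p = 2.16e-04). Neither gene reached a fold of 1.5, and the Ogt iKO levels were 68.7% and 72.5% of control. No Ogt iKO library reached the lower control value of either gene.

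Of the 20 hnRNP genes, 16 fell and 1 rose, beside 32.0% and 33.2% of all genes tested, and 3 were not called. Their median log2 ratio was -0.44. Hnrnpa0 (chr13:58125879-58128556, minus strand), an A/B-type hnRNP made from a single exon, was among those that fell most, with 5135 and 4549 counts against 8256 and 7693. Its level went from 518 ± 22.6 CPM in the controls to 297 ± 5.01 CPM in Ogt iKO (SD, n = 2 each), a log2 ratio of -0.80 (SE 0.06, adjusted p = 1.09e-05). Hnrnph3 (chr10:63014664-63024217, minus strand), of the family that binds runs of G, had 608 and 591 counts against 936 and 1030, a log2 ratio of -0.79 (SE 0.09, adjusted p = 7.95e-05). These genes ended at 57.4% and 57.7% of their control levels.

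Hnrnpc (chr14:52073377-52104028, minus strand), whose product packages nascent transcripts and binds runs of U, had 7368 and 6885 counts after treatment against 11435 and 10224 without it. That was a log2 ratio of -0.68 (SE 0.07, adjusted p = 4.22e-05). Hnrnpa1 (chr15:103240432-103246692, plus strand), the classical opponent of SR proteins at exonic silencers, had only 318 and 328 counts against 492 and 483. Its log2 ratio was -0.67 (SE 0.10, adjusted p = 4.11e-04). Its level of 18.2 CPM per kilobase in the controls is uncertain, because 53.6% of its windows occurred in no other gene and the rest occurred in 19 other genes, 18 of them pseudogenes.

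The most abundant of the 46 genes per length of mRNA were Hnrnpa2b1 and Hnrnpab. Hnrnpa2b1 (chr6:51460932-51469894, minus strand), a relative of Hnrnpa1, had 16928 and 16897 counts against 21928 and 21475, and fell from 855 ± 7.19 to 631 ± 42.6 CPM per kilobase (log2 ratio -0.44, SE 0.06, adjusted p = 4.12e-04). Hnrnpab (chr11:51600100-51606847, minus strand) had 17648 and 16629 counts against 21040 and 19215, and fell from 649 ± 37.5 to 523 ± 14.0 CPM per kilobase (log2 ratio -0.31, SE 0.06, adjusted p = 0.00244). In Hnrnpab, 29.1% of the exon length lies under Phykpl on the other strand, and the call was lost under scaling by library totals (adjusted p = 0.06). Before scaling for length, Hnrnpu (chr1:178321108-178337797, minus strand), the gene of scaffold attachment factor A, had the most counts of the 46, with 24639 and 22733 against 31220 and 29976. Its log2 ratio was -0.45.

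Several hnRNP genes are paralogs of each other. Hnrnpd, the gene of the AU-rich element binding protein AUF1, and its neighbour and paralog Hnrnpdl on chromosome 5 fell by 0.56 and 0.63 on the log2 scale. Hnrnpl, which binds CA repeats, and its paralog Hnrnpll fell by 0.58 and 0.43. In the H and F family, Hnrnph3 and Hnrnph2 fell by 0.79 and 0.57 and Hnrnpf fell by 0.36, while Hnrnph1, with 8119 and 7855 counts against 8383 and 8209, had a log2 ratio of -0.13 that was not called (adjusted p = 0.0711). Hnrnph1 was called lower in DESeq2 (adjusted p = 0.0381) and without Ogt iKO replicate 2 (adjusted p = 0.0162). The differences between paralogs were not tested. Hnrnpf is uncertain, with 32.7% of its windows in no other gene. The remaining called hnRNP genes were Hnrnpr at -0.44, Hnrnpm at -0.42 and Hnrnpk, which binds C-rich RNA, at -0.33. Hnrnpk and Hnrnpm had 62.2% and 71.2% of windows in no other gene. March2 covers 14.7% of the Hnrnpm exon length on the same strand.

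Hnrnpul1 and Hnrnpul2, relatives of Hnrnpu, were not called. Hnrnpul1 had 4171 and 3802 counts against 4028 and 4239 (log2 ratio -0.13, adjusted p = 0.0675), and Hnrnpul2 had 6656 and 6213 against 6295 and 6622 (log2 ratio -0.09, adjusted p = 0.221). Hnrnpa3 was the single hnRNP gene that rose, with 536 and 543 counts in the iKO pair and 442 and 360 in the control pair (log2 ratio 0.35, SE 0.11, adjusted p = 0.0235). That call was lost in DESeq2 (adjusted p = 0.0968), without Ogt iKO replicate 2 (adjusted p = 0.0882) and without control replicate 2 (log2 ratio 0.21, adjusted p = 0.176). Hnrnpa3 also shares sequence with 46 other genes, 41 of them pseudogenes, and 71.8% of its windows occurred in no other gene.

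**Figure D3:**
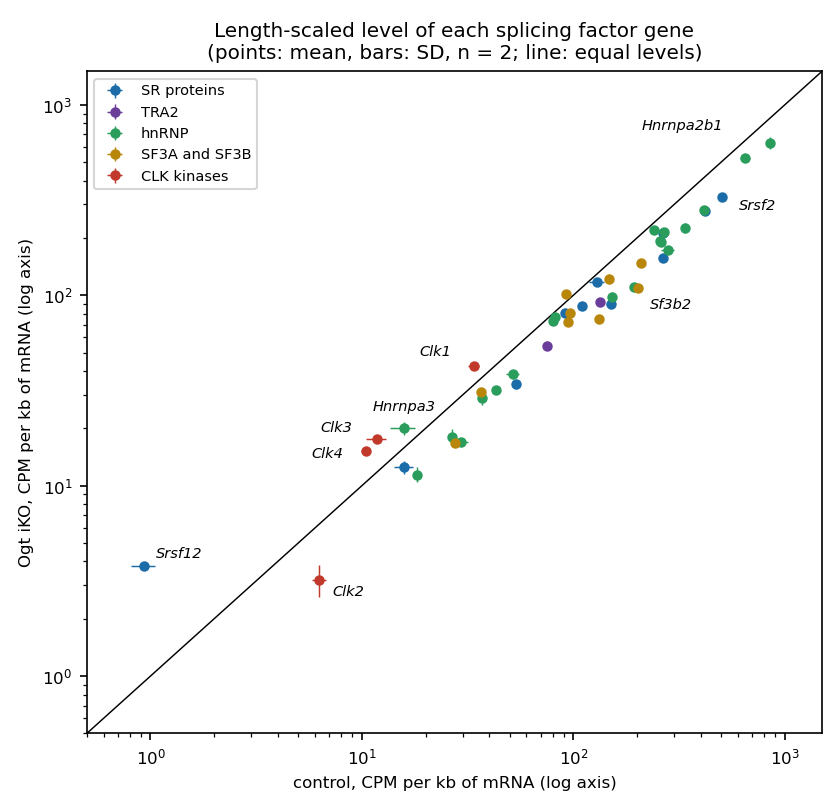
Mean level of each splicing factor gene in control (horizontal axis) and Ogt iKO (vertical axis) libraries, in CPM per kilobase of mRNA on log axes, with SD bars (n = 2 each) and a line of equal levels. Levels run from 0.927 (Srsf12) to 855 (Hnrnpa2b1) in the controls, and the genes above the line are Srsf12, Clk1, Clk3, Clk4, Hnrnpa3 and Sf3b1.

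Of the 9 SF3 genes, 8 fell, beside 32.0% of all genes tested, and Sf3b1 was not called. Their median log2 ratio was -0.38. With library totals in place of TMM factors the split was 5 lower and 1 higher, and with upper quartile scaling 8 lower and 1 higher, the higher gene being Sf3b1 in each case. Sf3b2 (chr19:5273932-5295455, minus strand), whose product touches the pre-mRNA close to the branch point, had 5851 and 5614 counts after treatment against 10022 and 9995 without it. Its level was 352 ± 13.9 against 650 ± 2.89 CPM (SD, n = 2 each), or 54.2% of control (log2 ratio -0.88, SE 0.06, adjusted p = 6.31e-06). This was the smallest adjusted p of the 46 genes.

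Sf3a2 (chr10:80798198-80804924, plus strand), of the SF3A trimer, had 1972 and 1714 counts against 3026 and 3046, a log2 ratio of -0.80 (SE 0.06, adjusted p = 9.72e-06). Sf3b5 (chr10:13005343-13009183, plus strand), a small subunit, had 1062 and 1026 counts against 1671 and 1596, a log2 ratio of -0.73 (SE 0.07, adjusted p = 3.72e-05). Sf3b3 (chr8:110810239-110846787, minus strand), whose product binds that of Sf3b5 in the complex, was the highest of the class per length of mRNA and had 11649 and 10194 counts against 14981 and 14296. Its log2 ratio was -0.51 (SE 0.06, adjusted p = 9.90e-05). In Sf3a2, 16.1% of the exon length lies under Plekhj1 on the other strand. In all these genes the higher Ogt iKO library lay below the lower control library.

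Subunits of the same complex had unlike log2 ratios, and the differences between them were not tested. Within the SF3A trimer, Sf3a2 fell by 0.80, and Sf3a3 and Sf3a1 fell by 0.27 and 0.25 on the log2 scale (adjusted p = 0.00510 and 0.00405). Within SF3B, Sf3b6, whose product sits at the branch point adenosine, fell by 0.38 (adjusted p = 6.79e-04) and Sf3b4 fell by 0.25 (adjusted p = 0.0145). Sf3b4 is uncertain, with 48.8% of its windows in no other gene. Sf3b1, the large subunit that clamps the branch site helix and is often mutated in myelodysplastic syndromes, had 10662 and 9730 counts in the iKO pair and 8941 and 8777 in the control pair. It was 109% of control, a log2 ratio of 0.12 that was not called (SE 0.05, adjusted p = 0.0763), although both Ogt iKO values were above both control values. With library totals the log2 ratio was 0.29 (adjusted p = 0.00134). The calls of Sf3a1, Sf3a3 and Sf3b4 were lost under that scaling, and that of Sf3b4 also without control replicate 1 (adjusted p = 0.0929).

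Promoter windows from 250 bases before to 50 bases after the transcript start were available from RefSeq (GRCm38.p6) for 41 of the 46 genes and for 11446 of the genes tested. Both strands were searched for 5 letter strings, none of which contains another. Some genes have several windows, and a gene was counted where any of them held the string. The ETS string CCGGAAG was found for 13 of the 41 genes (31.7%), against 18.6% of the 11446 genes. By class, these were 6 of 7 SF3 genes, 4 of 11 SR protein genes, 2 of 18 hnRNP genes, 1 of 3 CLK genes (Clk3, which rose) and 0 of 2 TRA2 genes. The CCAAT box (CCAAT) was found for 51.2% of the 41 genes against 43.0%. These were 13 of 18 hnRNP genes, 4 of 11 SR protein genes, 2 of 7 SF3 genes, 1 of 3 CLK genes and 1 of 2 TRA2 genes. Other strings were found for 14.6% of the genes against 11.7% (E-box CACGTG), 12.2% against 8.90% (TATAAA) and 4.88% against 3.44% (cyclic AMP response element TGACGTCA). These are matches of letters and not measured binding sites.

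The 250 bases before the start are shown for Sf3b2, the SF3 gene that fell furthest, with the ETS string in capitals, from RefSeq (GRCm38.p6) and on the gene's own strand. They lie at chr19:5295456-5295705 (minus strand).
Sf3b2 upstream: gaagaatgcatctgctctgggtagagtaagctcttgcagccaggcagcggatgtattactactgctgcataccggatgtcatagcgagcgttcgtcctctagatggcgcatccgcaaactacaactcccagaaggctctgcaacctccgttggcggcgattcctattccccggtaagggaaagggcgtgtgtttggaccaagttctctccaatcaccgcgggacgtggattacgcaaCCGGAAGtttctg

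The single ETS string of this stretch lies close to the start of Sf3b2.

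The CLK kinase genes were the one class with a positive median, at a log2 ratio of 0.43. Of these 4 genes, 3 were higher and 1 lower, where 33.2% and 32.0% of all genes tested were. CLK kinases phosphorylate the serine and arginine repeats of SR proteins in the nucleus, and their own transcripts often keep introns. Clk3 (chr9:57750624-57765860, minus strand) had 758 and 680 counts after treatment against 489 and 414 without it, or 44.1 ± 0.352 against 29.3 ± 3.26 CPM (SD, n = 2 each). Its level was 150.5% of control (log2 ratio 0.59, SE 0.09, adjusted p = 6.79e-04). Clk4 (chr11:51261730-51281766, plus strand), the closest relative of Clk1, had 416 and 386 counts against 253 and 270 and rose 1.45-fold (log2 ratio 0.54, SE 0.10, adjusted p = 0.00187).

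Clk1 (chr1:58410189-58424066, minus strand), the kinase with the highest length-scaled level of the class, had 1300 and 1180 counts against 979 and 889 and rose 1.25-fold (log2 ratio 0.33, SE 0.07, adjusted p = 0.00452). Without control replicate 2 its log2 ratio was 0.26 and was not called (adjusted p = 0.0513). Clk2 (chr3:89164795-89176921, plus strand) went the other way, with 101 and 120 counts in the iKO pair and 196 and 217 in the control pair. It fell to 50.8% of control, from 13.4 ± 1.05 to 6.82 ± 1.29 CPM (SD, n = 2 each; log2 ratio -0.98, SE 0.18, adjusted p = 0.00133). Without Ogt iKO replicate 1 the log2 ratio of Clk2 was -0.79, beside -0.84 for Sf3b2, so the order of these falls rests on that library. Taken as a class, CLK genes made up 0.0160% and 0.0161% of all counts in Ogt iKO and 0.0116% and 0.0111% in the controls. SR protein genes made up 0.305% and 0.313% against 0.404% and 0.388%, and a link between these changes was not tested. In Clk3, 15.2% of the exon length lies under Edc3 on the other strand.

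**Figure D4:**
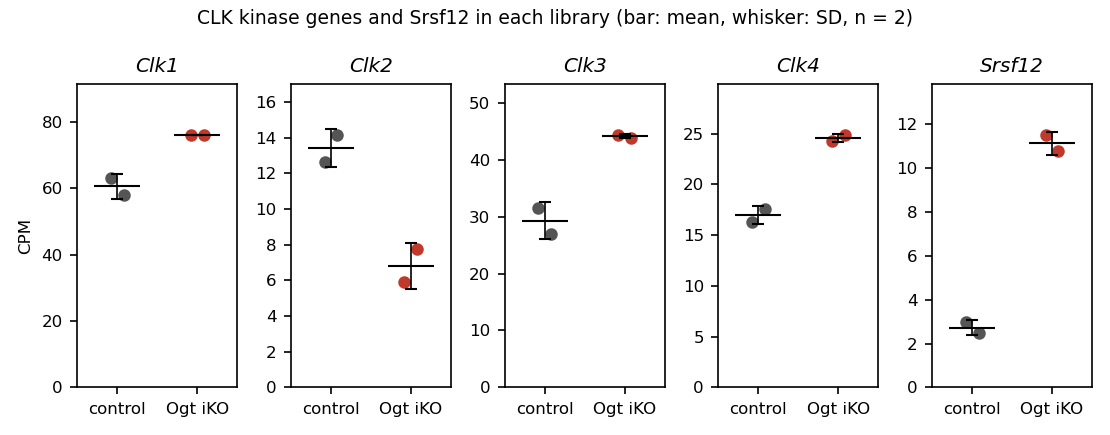
CPM of the 4 CLK kinase genes and of Srsf12 in each library (points), with the group mean (bar) and SD (whisker, n = 2). Clk1, Clk3, Clk4 and Srsf12 lie higher in both Ogt iKO libraries than in both control libraries, and Clk2 lies lower in both.

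Other genes of the splicing machinery were read from 5 lists, none of them limited to genes with a mean log2 CPM of 6 or more. Of 29 tested genes for snRNP and U4/U6.U5 proteins, 24 were lower, none was higher and 5 were not called, with a median log2 ratio of -0.53. The lower genes made up 82.8% of the list, against 32.0% of all genes tested and 49.0% of those with a mean log2 CPM of 6 or more. With library totals 20 of them were lower and 2 higher, against 3282 and 6116 of all 14525 genes. Snrnp40, a U5 protein, had 1863 and 1706 counts after treatment against 3229 and 2947 without it (log2 ratio -0.87, adjusted p = 1.00e-05). Snrnp70, which recognises the start of introns within the U1 particle, had 4847 and 4740 against 7825 and 8062 (log2 ratio -0.81, adjusted p = 1.29e-05). Snrpa, its U1 partner, had 1301 and 1224 against 2023 and 2059 (log2 ratio -0.77, adjusted p = 1.41e-05). Phf5a encodes an SF3B subunit that the symbol patterns do not cover, and it fell with most of that complex, with 1754 and 1762 counts against 2509 and 2413 (log2 ratio -0.56).

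Of 23 genes for U2AF and SR-related proteins, 21 were lower, none was higher and Scaf4 and Scaf8 were not called, with a median log2 ratio of -0.34. That made 91.3% lower, beside the same 32.0% and 49.0%. With library totals 13 of them were lower, again against 3282 of 14525. Ddx39b, an RNA helicase that helps U2 join the branch point, had 5877 and 5654 counts against 10027 and 9730 (log2 ratio -0.86, adjusted p = 7.55e-06). Scaf1 had 1866 and 1641 against 2611 and 2714 (log2 ratio -0.69, adjusted p = 2.40e-05), and Rnps1, of the complex that marks exon junctions, had 1109 and 1024 against 1652 and 1633 (log2 ratio -0.70, adjusted p = 2.95e-05). U2af1, the subunit of U2AF that reads the end of the intron, had 592 and 584 against 974 and 1020 (log2 ratio -0.84, adjusted p = 4.47e-05).

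The other kinases of SR proteins and their nuclear importer showed no common direction. Of 9 tested genes, 3 were higher, 2 lower and 4 not called, with a median log2 ratio of 0.02. The 33.3% that were higher lay next to the 33.2% of all genes tested, and the 55.6% called in either direction lay below the 65.3% of all. With library totals 5 were higher and 2 lower, with a median of 0.19, beside 0.19 for all genes tested under that scaling, where 6116 of 14525 genes were higher. Srpk2, which phosphorylates SR proteins in the cytoplasm, had 2582 and 2444 counts in the iKO pair and 1131 and 1220 in the control pair, a log2 ratio of 1.02 (SE 0.07, adjusted p = 6.31e-06). Dyrk1b rose from 179 and 177 counts to 541 and 469 (log2 ratio 1.42, SE 0.10, adjusted p = 1.04e-05). Cdk11b fell by 0.51 on the log2 scale (adjusted p = 9.98e-05). Srpk1 had a log2 ratio of -0.18 and was not called (adjusted p = 0.076).

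Of 40 tested genes for other splicing regulators, 27 were lower, 9 higher and 4 not called, with a median log2 ratio of -0.43. Lower genes were 67.5% of the list, against 32.0% of all genes tested and 49.0% at high level, and higher genes 22.5%, against 33.2% and 24.7%. With library totals 21 were lower and 9 higher, against 3282 and 6116 of all 14525 genes, and the median was -0.26. Pcbp3, a poly(C)-binding protein gene, fell furthest, with 58 and 55 counts after treatment against 411 and 422 without it (log2 ratio -2.96, adjusted p = 1.27e-06). Pcbp4 fell by 1.26 (adjusted p = 1.66e-06). Mbnl3 rose from 172 and 202 counts to 740 and 639 (log2 ratio 1.80, adjusted p = 4.26e-06). The other muscleblind genes, whose products govern splicing changes as cells differentiate, were higher too, Mbnl2 by 1.29 and Mbnl1 by 0.37.

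Of 17 genes for nonsense-mediated decay and the exon junction complex, which act on transcripts with poison exons, 9 were lower, 2 higher and 6 not called, with a median log2 ratio of -0.26. The share called was 64.7%, against 65.3% of all genes tested, and 52.9% were lower, against 32.0% of all genes and 49.0% of those with a mean log2 CPM of 6 or more. With library totals 4 were lower and 4 higher, against 3282 lower and 6116 higher of all 14525 genes, and the median was -0.09, against 0.19. Upf3b had 361 and 395 counts against 618 and 629 (log2 ratio -0.80, adjusted p = 1.92e-04), and Rbm8a had 2686 and 2602 against 3244 and 3208 (log2 ratio -0.37, adjusted p = 6.53e-04). Nbas rose from 694 and 662 counts to 1142 and 966 (log2 ratio 0.55, adjusted p = 3.30e-04).

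**Figure D5:**
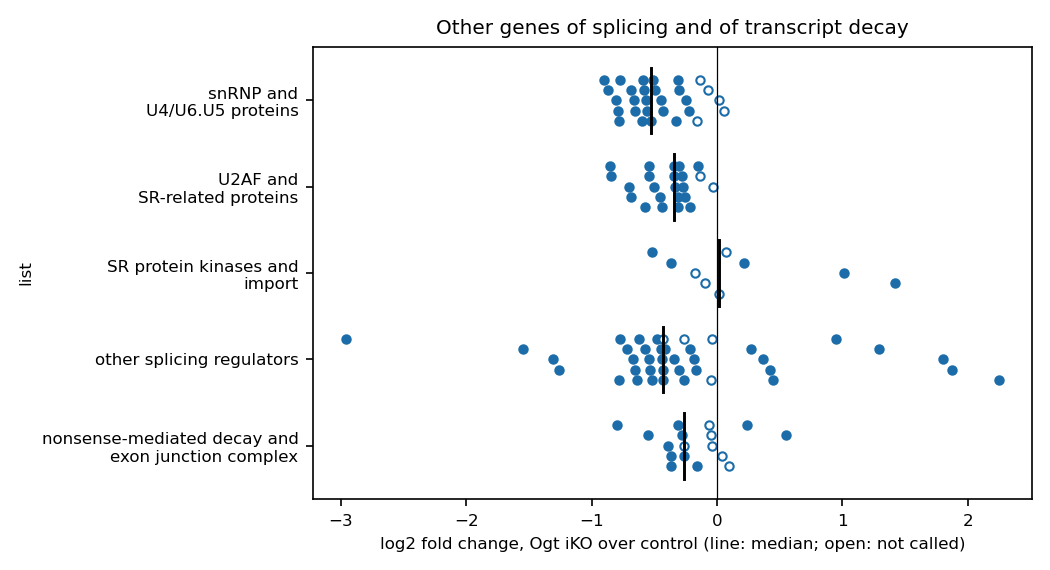
Log2 ratio (Ogt iKO over control, horizontal axis) of each tested gene of 5 lists (vertical axis), with open circles for genes that were not called and a line at the list's median. The medians run from -0.53 for snRNP and U4/U6.U5 proteins to 0.02 for SR protein kinases and import.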

How the data were processed

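Each library is a table of raw read counts per gene symbol, deposited by the authors with no normalization. Per the submitters' processing notes, STAR, Picard and the mouse build mm10 were used, and per the labels' protocols the libraries were made with a stranded Illumina mRNA kit. The versions, the annotation, the strand counted and the handling of reads that map to several genes are not given in the sources used here. Of the 46 genes, 7 have over 10% of their exon length under another gene. For 30 genes, at least 90% of the 50-base windows occurred in no other gene's transcripts on either strand, and 16 genes had fewer. The windows came from each gene's longest coding transcript.

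Counts were tested with edgeR 4.0.16 in R 4.3.3 (TMM factors, filterByExpr, glmQLFit and glmQLFTest) on all 4 libraries, with no covariate. Adjustment (Benjamini-Hochberg) covered all 14525 tested genes, and an adjusted p under 0.05 is a call. SEs came from the fold change and its F statistic. CPM used TMM-scaled library sizes, and CPM per kilobase divided by the median length of the gene's basic GENCODE M21 transcripts. The common biological coefficient of variation was 7.82%. An exact test of 2 against 2 libraries cannot give a p below 0.333, so calls rest on a spread shared among genes. Gene models came from GENCODE M21 and matched 24510 of 25239 symbols.

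Alternatives were relative log expression, upper quartile and library-total scaling, DESeq2 1.42.0, other filters, a robust spread, a block on the replicate number, a threshold of 0.01, glmTreat (fold 1.2), leaving out each library and leaving out genes with overlapping exons. A fold of at least 1.5 and the 90% window limit were added after the data were seen. The members, the lists and the tests were chosen with earlier results of these data known. All members could be named. Values in each library were given for up to 4 called genes per class with the largest change, up to 2 with the highest length-scaled level, genes not called, and up to 3 genes per list with the smallest adjusted p. A few others (Phf5a, U2af1, Mbnl1, Mbnl2, Srsf11, Hnrnpu, Hnrnpa3, Srpk1) were chosen after their values were seen.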

Additional observations from a re-analysis of the deposited data

How the results depend on the processing

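Of the 46 splicing factor genes, all kept their calls with relative log expression factors, a robust spread, either other filter on low counts, and without Ogt iKO replicate 1. The difference between replicates 1 and 2 correlated weakly between the groups (r = 0.0859 over 14525 genes). With 2 pairs, this cannot show whether the samples were paired. With the replicate number as a block, the counts stayed at 36 lower and 5 higher. With library totals, the log2 ratios of Hnrnph1 (0.0350), Hnrnpul1 (0.0351), Hnrnpul2 (0.0827) and Srsf9 (0.0332) changed sign, and 65.1% of all called genes were higher in place of 50.9%. SF3 genes then gave 5 lower and 1 higher, and upper quartile scaling also gave 1 higher, Sf3b1. No hnRNP gene was higher (0) in DESeq2, at an adjusted p under 0.01, by glmTreat or at a fold of 1.5, because Hnrnpa3 lost its call. By glmTreat against a fold of 1.2, 3 of the 46 were higher and 26 lower, against 3741 higher and 3215 lower of all 14525 genes. The lower genes included 5 SR protein genes and 5 SF3 genes. With a fold of at least 1.5 added, 2326 of all genes were lower, 2 of the 46 were higher and 14 lower, and lower genes numbered 5 (SR), 5 (hnRNP), 0 (TRA2) and 3 (SF3), with 1 CLK gene higher. Leaving out each library in turn gave 3 to 5 of the 46 higher and 33 to 38 lower, 0 to 1 hnRNP genes higher, 2 to 3 CLK genes higher, 7 to 10 SR protein genes lower and 7 to 8 SF3 genes lower, with 3943 to 4780 of all genes higher and 3940 to 4722 lower. In these fits the lone library is assumed to vary like the other group. The lowest count of higher genes, 3, came without control replicate 2, where Clk1 and Hnrnpa3 lost their calls. Among the 26 of the 46 without overlapping exons, 20 were lower and 2 higher, and among the 30 with at least 90% of windows in no other gene, 22 were lower and 3 higher, out of fewer genes by construction. The cause of the other changes was not tested. Depth limits most the genes with the fewest counts, Srsf12 and Clk2.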
